A study of Mus musculus with 11 samples.

Results

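The genes described here encode the motors that carry cargo along microtubules: the kinesins (gene symbols Kif with a number and an optional letter), the kinesin light chains (Klc), the subunits of cytoplasmic dynein (Dync) and those of its cofactor dynactin (Dctn). They were chosen by symbol alone, among probe sets of the array with 1 annotated gene symbol. Where a gene had several probe sets, the brightest by its average across the 11 arrays stood for it. The choice gave 53 motor genes of 19938 genes on the array. A filter on dim genes, which asked for a mean log2 level above 6.99 (the 40th percentile of all genes), was passed by 37 of the 53, and 16 lay below it.

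Expression was measured in the nucleus accumbens, the ventral part of the striatum, enriched in its shell. The arrays held RNA of 6 wild-type (WT) and 5 RARβ-null mutant male mice, aged 4 to 5 months, with 1 mouse per array. Rarb encodes retinoic acid receptor beta, a transcription factor that is switched by retinoic acid. The null animals and their WT littermates came from crosses of heterozygotes on a mixed C57BL/6J and 129SvEms/j background, and none had been tested in behaviour. The sources used here name no Cre driver or promoter, so the null mice are described only as mutant animals. The titles and the design text give 6 WT and 5 null mice, while the extraction protocol gives the numbers the other way round.

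Kinesins are microtubule motors that burn ATP, and most of them walk toward the plus ends of microtubules, which in an axon point away from the cell body. Cytoplasmic dynein 1 walks the other way and needs dynactin to stay on the track and to hold cargo. Projection neurons of the striatum have long axons and spiny dendrites, so synaptic vesicle precursors, mitochondria, receptors and signalling endosomes all travel on these motors. Other kinesins build the mitotic spindle or serve cilia.

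The values are log2 expression after robust multi-array analysis (RMA), which the authors deposited. A difference is always null minus WT, taken between the group means, so a difference of 1 is a doubling, and it comes with its standard error (SE) or 95% confidence interval from a limma fit over all 11963 genes above the filter. A gene was called, and is said to have risen or fallen, where the limma p adjusted by Benjamini and Hochberg over those 11963 genes was under 0.05. Levels are means ± SD with n = 6 WT and n = 5 null arrays. Levels of different probe sets are not compared with each other, because probes bind with different strength.

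Rarb itself read 11.70 to 11.81 in the WT arrays and 9.72 to 10.01 in the null arrays, so the array labels matched the receptor's own level. The median of an array lay at 7.02 to 7.06 for WT mice and at 7.08 to 7.11 for null mice, without overlap. That offset depended on brightness: of the 7975 genes at or below the filter 80.1% averaged higher in the null arrays (median difference 0.064), against 37.2% of the 7975 genes above the 60th percentile (median -0.028). Of 10 striatal projection neuron markers 7 fell, and their mean level was 11.83 to 11.91 in WT against 11.56 to 11.68 in null arrays. All 8 tested cortical neuron markers averaged higher in the null arrays and 3 of them rose. Their mean level was 8.12 to 8.83 in WT against 8.67 to 9.25 in null arrays, lowest in WT replicates 3 and 4 and highest in Rarb-null replicate 5. Of 11 oligodendrocyte markers 4 fell, with a mean level of 9.30 to 9.51 in WT against 9.16 to 9.39 in null arrays. Of 8 astrocyte markers 1 rose and 2 fell, and no microglial or endothelial marker was called. The part of these shifts in the differences given for the motor genes was not tested beyond the covariate fits named. The tissue is a mixture of cells, so fewer cells of a type and less RNA per cell cannot be told apart.

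The transport motors were mostly level between genotypes. Of the 37 tested motor genes, Kif13a and Kif17 fell and Kif6 rose, and 34 were not called. This is 8.11% of the tested motor genes, beside 19.6% of all genes tested (percent called). By direction, 905 of the 11963 genes tested rose (7.56%) and 1436 fell. An unadjusted limma p under 0.05 was found for 9 motor genes, 24.3% of those tested, beside 35.3% of all genes. When the level of the cortical markers entered the fit as a covariate, 2 other motor genes were called lower, Kif5c and Dync1i1, while Kif13a (-0.15, adjusted p = 0.0685) and Kif17 (-0.16, adjusted p = 0.114) kept their direction and were not called. With that covariate 1219 of all genes tested were called, beside 2341 without it. The cortical marker level itself differed by genotype (mean 8.41 in WT, 8.85 in null arrays), so covariate and genotype cannot be fully told apart. In the main fit the median difference was 0.002 over the 37 motor genes and -0.017 over all genes tested. For 30 of the 37 the difference was smaller than 0.1 in either direction (81.1%, against 64.2% of all genes). The 95% interval lay wholly between -0.2 and 0.2 for 31 of the 37 (83.8%, against 62.0%). The arrays of the genotypes were fully apart for 2 motor genes, Kif13a and Kif17, which is 5.41% beside 11.2% of all genes tested.

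**Figure D1:**
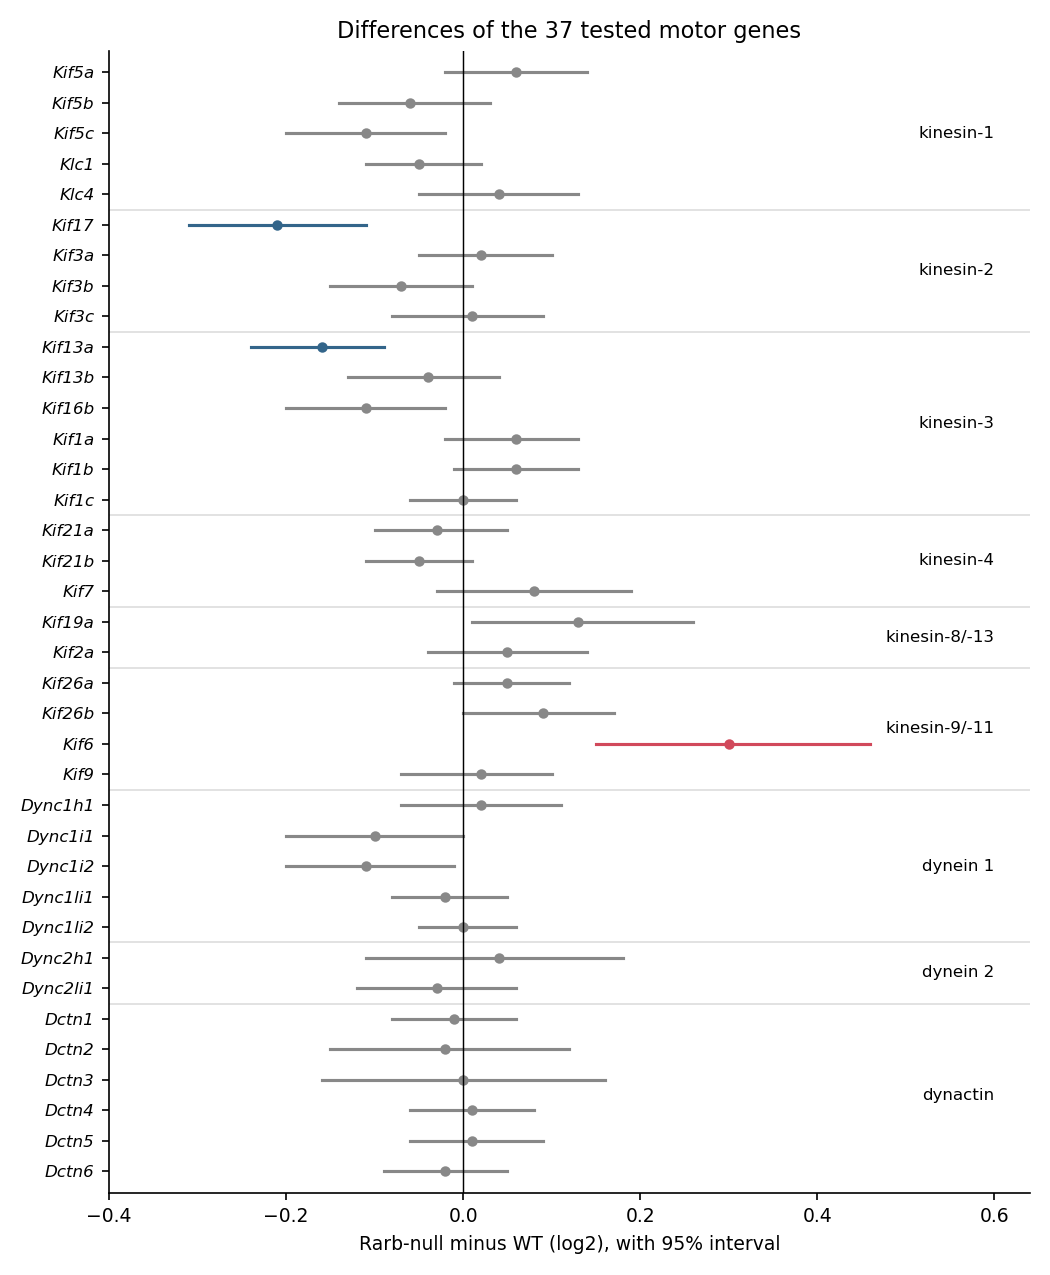
Difference in log2 expression, Rarb-null minus WT (x axis), of each of the 37 tested motor genes, ordered by role; points are limma estimates and bars their 95% intervals, blue where the gene fell, red where it rose and grey where it was not called. Kif17 and Kif13a lie to the left of 0 and Kif6 to the right, at 0.30, while the 6 dynactin genes sit between -0.02 and 0.01.

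Kinesin-1, the classic motor of fast axonal transport, is made of a pair of heavy chains (Kif5a, Kif5b or Kif5c) and a pair of light chains that bind cargo. None of the 5 tested genes of this complex was called by limma, and 1 had an unadjusted p under 0.05. Kif5c, a heavy chain enriched in neurons, read 11.01 to 11.11 in the WT arrays (median 11.07) and 10.95, 10.97, 10.83, 10.90 and 11.10 in the null arrays. Rarb-null replicates 1 to 4 lay below every WT array, while replicate 5 lay among them. The difference was -0.11 (95% interval -0.20 to -0.02, limma adjusted p = 0.082). Without Rarb-null replicate 5 it was -0.15 with an adjusted p of 0.0131. That array was the highest null array for Kif5c, so leaving it out had to enlarge the difference. In a fit that took account of the cortical markers the difference was -0.19 (adjusted p = 0.0331). Kif5c was called in 3 of the 23 settings tried, and in 1 of the 11 that left out 1 array. Over all 23 settings the adjusted p ran from 0.0131 to 0.423.

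Kif5a, the heavy chain confined largely to neurons and mutated in a hereditary spastic paraplegia, was not called either. It read 11.38 to 11.53 in WT and 11.47 to 11.62 in null arrays, a difference of 0.06 (95% interval -0.02 to 0.14, limma adjusted p = 0.246) that was -0.01 with the cortical covariate. Kif5b, the heavy chain found in most cell types, averaged 10.41 ± 0.07 in WT and 10.36 ± 0.04 in null arrays (-0.06, interval -0.14 to 0.03). The light chain gene Klc1 averaged 11.68 ± 0.02 and 11.63 ± 0.05 (-0.05, interval -0.11 to 0.02). Klc4 differed by 0.04 (interval -0.05 to 0.13), and Klc3 lay below the filter. The heavy and light chains thus gave small differences in both directions, with intervals that reach from -0.20 to 0.14.

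Kinesin-2 carries cargo in axons and dendrites and trains of proteins in cilia. Its homodimeric member Kif17, known in dendrites for carrying NMDA receptor subunits, fell. It read 8.78 to 8.94 in the 6 WT arrays, with a median of 8.81, and 8.68, 8.53, 8.77, 8.59 and 8.63 in null arrays. Every null array lay below every WT array, although the highest null array and the lowest WT array differed by only 0.01 in these rounded values. The difference was -0.21 (SE 0.046, a 1.16-fold reduction, limma adjusted p = 0.00718). The two-sided exact permutation p was 0.00216, the smallest that 462 splits of the arrays can give. Whichever array was left out the call held, with differences from -0.24 to -0.18. The call did not survive the cortical covariate (-0.16, adjusted p = 0.114) or the removal of the 3 arrays at the extremes of the cortical markers, WT replicates 3 and 4 together with Rarb-null replicate 5 (-0.16, adjusted p = 0.0681). Calls over all genes tested also went down, from 2341 to 1219 with that covariate and to 1347 without those arrays. Over all 23 settings the adjusted p of Kif17 ran from 0.0033 to 0.114.

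Because the mutated protein is a DNA-binding receptor, the bases before the RefSeq start of Kif17 are shown, with matches in capitals to the retinoid half-sites searched (AGGTCA, its variant GGGTCA and the further variant AGTTCA, each on both strands, where a spelling may overlap another) and to TGACGTCA, the palindrome bound by cyclic AMP-responsive factors. The stretch is chr4:138262001-138262250 on the plus strand of GRCm38.p6, from RefSeq.
Kif17: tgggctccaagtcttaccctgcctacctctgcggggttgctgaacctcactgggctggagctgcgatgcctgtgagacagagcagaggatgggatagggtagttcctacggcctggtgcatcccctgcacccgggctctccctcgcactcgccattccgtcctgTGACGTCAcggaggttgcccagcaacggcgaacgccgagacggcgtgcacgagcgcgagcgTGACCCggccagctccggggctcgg
The stretch holds TGACGTCA, which begins at position -86 counted from the start, and 1 half-site, GGGTCA read on the other strand as TGACCC. Such a half-site is common: GGGTCA occurs in 13.7% of 32851 RefSeq windows of 300 bases (250 before to 50 after a start), and TGACGTCA in 1.79%. TGACGTCA was looked for after the Kif17 stretch had been read. A match describes letters and does not show a binding site.

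The heterotrimeric kinesin-2 genes were not called. Kif3b, a motor subunit, averaged 9.20 ± 0.03 in WT and 9.13 ± 0.07 in null arrays (-0.07, 95% interval -0.15 to 0.01, limma adjusted p = 0.172). The other motor subunit genes gave 0.02 for Kif3a (interval -0.05 to 0.10) and 0.01 for Kif3c (interval -0.08 to 0.09). Kif3c read 10.10 in Rarb-null replicate 5 and 9.86 to 9.94 in the other null arrays, and its difference turned to -0.03 without that array (adjusted p = 0.498).

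**Figure D2:**
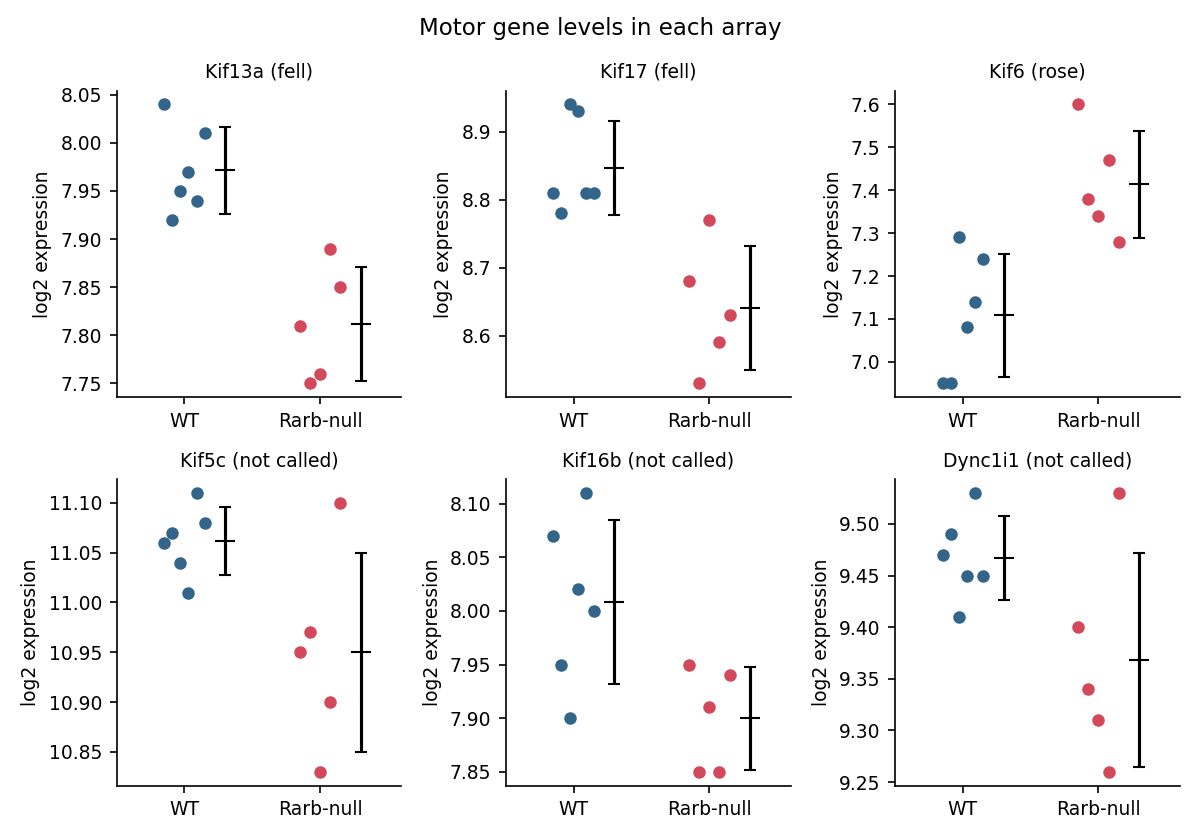
Log2 expression (y axis, not starting at 0) of Kif13a, Kif17, Kif6, Kif5c, Kif16b and Dync1i1 in each of the 6 WT (blue) and 5 Rarb-null (red) arrays; black bars are the mean ± SD. The groups are apart for Kif13a and Kif17, touch for Kif6 at 7.28 to 7.29, and for Kif5c and Dync1i1 1 null array, replicate 5 (11.10 and 9.53), lies among the WT arrays.

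Kinesin-3 motors are fast and processive carriers of vesicles. Kif13a, which moves endosomal cargo such as mannose 6-phosphate receptors toward the cell surface, fell. It read 7.92 to 8.04 in the 6 WT arrays (median 7.96) and 7.81, 7.75, 7.76, 7.89 and 7.85 in the null arrays, and no null array reached a WT value. The difference was -0.16 (SE 0.034, a 1.12-fold reduction, limma adjusted p = 0.00611; two-sided exact permutation p = 0.00216). The call held whichever array was left out (-0.18 to -0.15). With the cortical covariate the difference was -0.15 and the adjusted p 0.0685, and over all 22 settings that tested the gene the adjusted p ran from 0.00538 to 0.0685. The 300-base window at the RefSeq start of Kif13a holds none of the half-sites and no TGACGTCA.

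Its close relative Kif13b, also a carrier of membrane cargo, differed by -0.04 (95% interval -0.13 to 0.04, limma adjusted p = 0.449). Kif13b is the only motor gene on chromosome 14, where Rarb lies. Kif16b, which moves early endosomes, read 7.90 to 8.11 in WT and 7.85 to 7.95 in null arrays, with overlap. Its difference was -0.11 (interval -0.20 to -0.02, adjusted p = 0.0825), and it was called without WT replicate 3 only (-0.13, adjusted p = 0.0406; 0.0406 to 0.463 over the settings). The carriers of synaptic vesicle precursors and mitochondria gave small differences above 0. Kif1a averaged 11.76 ± 0.06 in WT and 11.82 ± 0.03 in null arrays (0.06, interval -0.02 to 0.13), and Kif1b 11.45 ± 0.06 and 11.51 ± 0.03 (0.06, interval -0.01 to 0.13). For Kif1c both genotypes averaged 7.60, and its second, dimmer probe set gave -0.13, with 6.52 to 6.66 in WT and 6.29 to 6.63 in null arrays (two-sided exact permutation p = 0.0541).

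Kinesin-4 and its relatives stop microtubule growth or serve signalling at the cilium tip, and none of the 3 tested was called by limma, with 0 at an unadjusted p under 0.05. Kif21b, a neuronal motor of dendrites, averaged 8.75 ± 0.03 in WT and 8.70 ± 0.04 in null arrays (-0.05, 95% interval -0.11 to 0.01). Kif21a, mutated in a congenital disorder of eye movement, differed by -0.03 (interval -0.10 to 0.05), a sign that turned to 0.01 with arrays centred. Kif7, which acts in Hedgehog signalling, differed by 0.08 (interval -0.03 to 0.19), and its second probe set by 0.14, with overlapping arrays in both.

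Kinesin-8 and kinesin-13 motors shorten microtubules from their ends. Kif2a, which limits the growth of axon branches, averaged 10.36 ± 0.08 in WT and 10.41 ± 0.06 in null arrays (0.05, 95% interval -0.04 to 0.14). Kif19a, which sets the length of motile cilia, read 6.88 to 7.13 in WT and 7.02 to 7.29 in null arrays. Its difference of 0.13 (interval 0.01 to 0.26) did not pass (limma adjusted p = 0.109).

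The kinesins of cell division, such as the spindle motors Kif11 and Kif15 and the cytokinesis motors Kif20a and Kif23, lay below the filter, as 7 of 7. So did Kif2c, Kif4, Kif14, Kif18a and Kif18b, which also act in mitosis, together with Kif2b, Kif24, Kif27 and Klc3. Of these 16 dim genes 14 averaged higher in the null arrays, by -0.06 to 0.17 with a median of 0.058, beside 80.1% and a median of 0.064 among all genes below the filter. Markers of dividing cells were likewise all below the filter, and 7 of 7 averaged higher in the null arrays (mean level 6.02 to 6.08 in WT, 6.13 to 6.21 in null arrays). With no filter on dim genes Kif18b was called (0.17, SE 0.052, limma adjusted p = 0.0477). It read 6.39 to 6.51 in WT and 6.51 to 6.80 in null arrays.

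**Figure D3:**
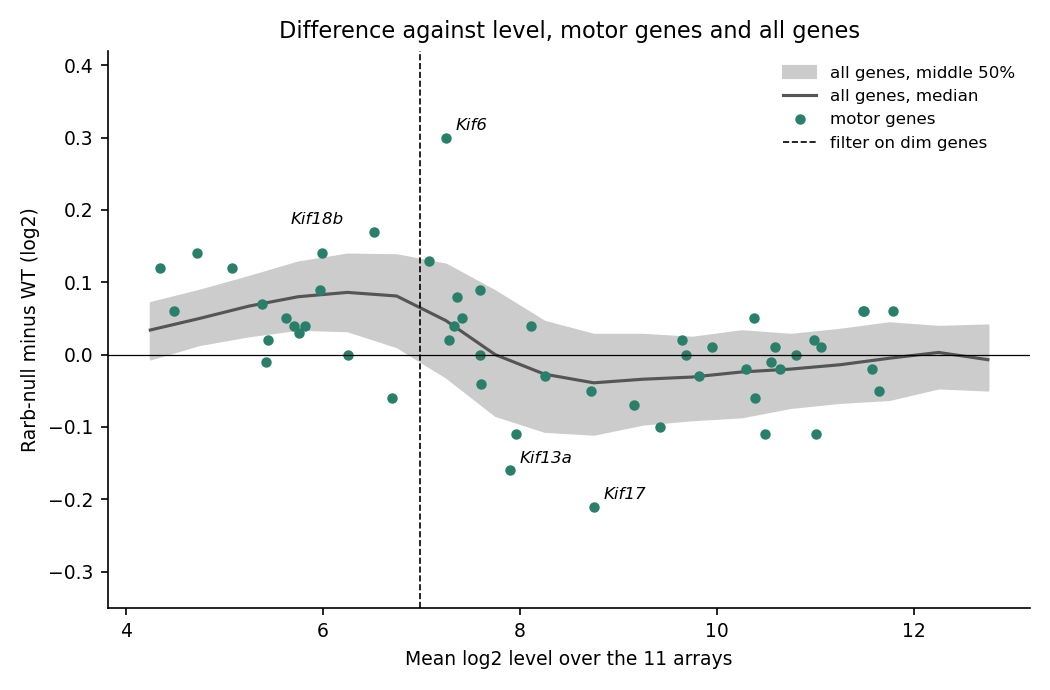
Difference, Rarb-null minus WT in log2 (y axis), against the mean log2 level over the 11 arrays (x axis), for the 53 motor genes (green points) and for all genes (dark line, median in steps of 0.5; grey band, middle 50%); the dashed line marks the filter at 6.99. The median of all genes lies above 0 among dim genes and below 0 among brighter ones, while Kif6 stands above the band and Kif13a and Kif17 below it.

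Kif6, a kinesin-9 family member linked to the motile cilia of ependymal cells, rose. Its level was 6.95 to 7.29 in the 6 WT arrays, with a median of 7.11, and 7.60, 7.38, 7.34, 7.47 and 7.28 in null arrays. The groups met at the edge, where WT replicate 3 (7.29) lay above Rarb-null replicate 5 (7.28). The difference was 0.30 (SE 0.071, 1.24-fold, limma adjusted p = 0.0104; two-sided exact permutation p = 0.00649). It was larger than the median of 0.012 among all genes between the 40th and 60th percentiles, to which Kif6 belongs. The median varied with level within that range. Kif6 had a mean level of 7.25, and all genes in the narrower step centred there had a median of 0.047. Their upper quartile was 0.125, also below the difference of Kif6. The cyclic loess setting, fitted to the genes above the filter only, gave 0.27 (limma adjusted p = 0.0291). Kif6 lay near the lower edge of those genes. The part of the drift with level in its difference was not tested. The call held whichever array was left out (0.26 to 0.34). It failed when the oligodendrocyte markers entered as a covariate (0.26, adjusted p = 0.101; 0.00379 to 0.101 over the 21 settings that tested the gene). A second, dimmer probe set of Kif6 gave 0.14, with 6.23 to 6.54 in WT and 6.50 to 6.70 in null arrays, so the arrays overlapped. With both probe sets averaged the gene fell below the filter and was not tested.

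Markers of ciliated ependymal cells, like Kif6, averaged higher in the null group, at low levels. All 8 averaged higher in the null arrays, their mean level was 6.06 to 6.11 in WT and 6.15 to 6.22 in null arrays, and 7 of the 8 lay below the filter, among them Foxj1, a master regulator of motile cilia. Among all genes below the filter 80.1% averaged higher in the null arrays, by a median of 0.064. Ccdc153 was tested and rose by 0.19 (limma adjusted p = 0.0194). The part of ependymal tissue in the rise of Kif6 was not tested. Kif9, the other kinesin-9 gene and also a protein of motile cilia, averaged 7.27 ± 0.04 in WT and 7.29 ± 0.09 in null arrays (0.02, 95% interval -0.07 to 0.10).

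The RefSeq window of Kif6 holds a direct repeat of 2 half-sites with 1 base between them, shown here in capitals because retinoid X receptor dimers are known to bind such repeats. It begins 32 bases after the start, in chr17:49615196-49615221 on the plus strand of GRCm38.p6.
Kif6: actcggaaAGGTCAaGGGTCAgtgcg
A direct repeat of the 3 half-site spellings with a spacer of 1 occurs in 0.195% of the 32851 windows, 64 in all, and in 1 of the 49 windows of 43 motor genes that had one. Repeats with a spacer of 2 or 5, the classic arrangements for retinoic acid receptors, were found in 0 motor gene windows, beside 0.0883% and 0.0731% of all windows. Any of the half-sites alone was found in 32.7% of motor gene windows and 37.5% of all. As for Kif17, a match describes letters and does not show a binding site. Whether a receptor binds at Kif6 was not tested.

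Kif26a and Kif26b are kinesin-11 proteins that bind microtubules without walking. Kif26b read 7.43 to 7.61 in WT and 7.60 to 7.68 in null arrays, a difference of 0.09 (95% interval 0.00 to 0.17, limma adjusted p = 0.129). Its second probe set gave 0.23, with 6.97 to 7.26 in WT and 7.24 to 7.40 in null arrays. Kif26b was called with both probe sets averaged (0.16, adjusted p = 0.00247) and with each array centred on its median (0.13, adjusted p = 0.0401), while the adjusted p over the settings ran from 0.00247 to 0.629. Kif26a averaged 7.38 ± 0.04 in WT and 7.43 ± 0.04 in null arrays (0.05, interval -0.01 to 0.12).

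Cytoplasmic dynein 1 returns endosomes, autophagosomes and neurotrophin signals to the cell body. None of its 5 tested genes was called by limma, and 2, both intermediate chains that link the motor to dynactin, had an unadjusted p under 0.05. Dync1i1, the chain enriched in neurons, read 9.41 to 9.53 in WT (median 9.46) and 9.40, 9.34, 9.31, 9.26 and 9.53 in null arrays. As for Kif5c, Rarb-null replicate 5 lay apart from the other null arrays, here level with the highest WT array. The difference was -0.10 (limma adjusted p = 0.135). Dync1i1 was called without Rarb-null replicate 5 (-0.14, adjusted p = 0.0237), its highest null array, whose removal had to enlarge the difference. It was also called with the cortical covariate (-0.19, adjusted p = 0.0216). Calls came in 3 of the 23 settings, and in 1 of the 11 that left out 1 array. The adjusted p over the 23 settings ran from 0.0216 to 0.555. Dync1i2, the widely expressed intermediate chain, read 10.41 to 10.63 in WT and 10.34 to 10.49 in null arrays (-0.11, 95% interval -0.20 to -0.01, adjusted p = 0.113).

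The motor subunit itself, Dync1h1, averaged 10.98 ± 0.09 in WT and 11.00 ± 0.03 in null arrays (0.02, 95% interval -0.07 to 0.11). The light intermediate chain genes gave -0.02 for Dync1li1 (interval -0.08 to 0.05) and 0.00 for Dync1li2 (interval -0.05 to 0.06). The dynein 2 genes, whose products return proteins from the tips of cilia, gave 0.04 for Dync2h1 (interval -0.11 to 0.18) and -0.03 for Dync2li1 (interval -0.12 to 0.06), the latter turning to 0.01 with arrays centred. Neither was called.

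Dynactin showed the narrowest range of differences among the role groups. None of its 6 genes was called by limma, 0 had an unadjusted p under 0.05, and the adjusted p ran from 0.7 to 0.992. Differences ran from -0.02 to 0.01, and the widest 95% interval, that of Dctn3, from -0.16 to 0.16. Dctn1, whose product p150Glued binds both dynein and the microtubule and is mutated in Perry syndrome, averaged 10.55 ± 0.04 in WT and 10.55 ± 0.05 in null arrays (-0.01, interval -0.08 to 0.06). Dctn6, a subunit of the pointed end, averaged 11.58 ± 0.02 and 11.56 ± 0.07 (-0.02, interval -0.09 to 0.05), and its sign turned with arrays centred (0.02). Each of the 6 dynactin genes changed sign under at least 1 setting. Dctn2, the p50 subunit, differed by -0.02 with a wider interval (-0.15 to 0.12).

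**Figure D4:**
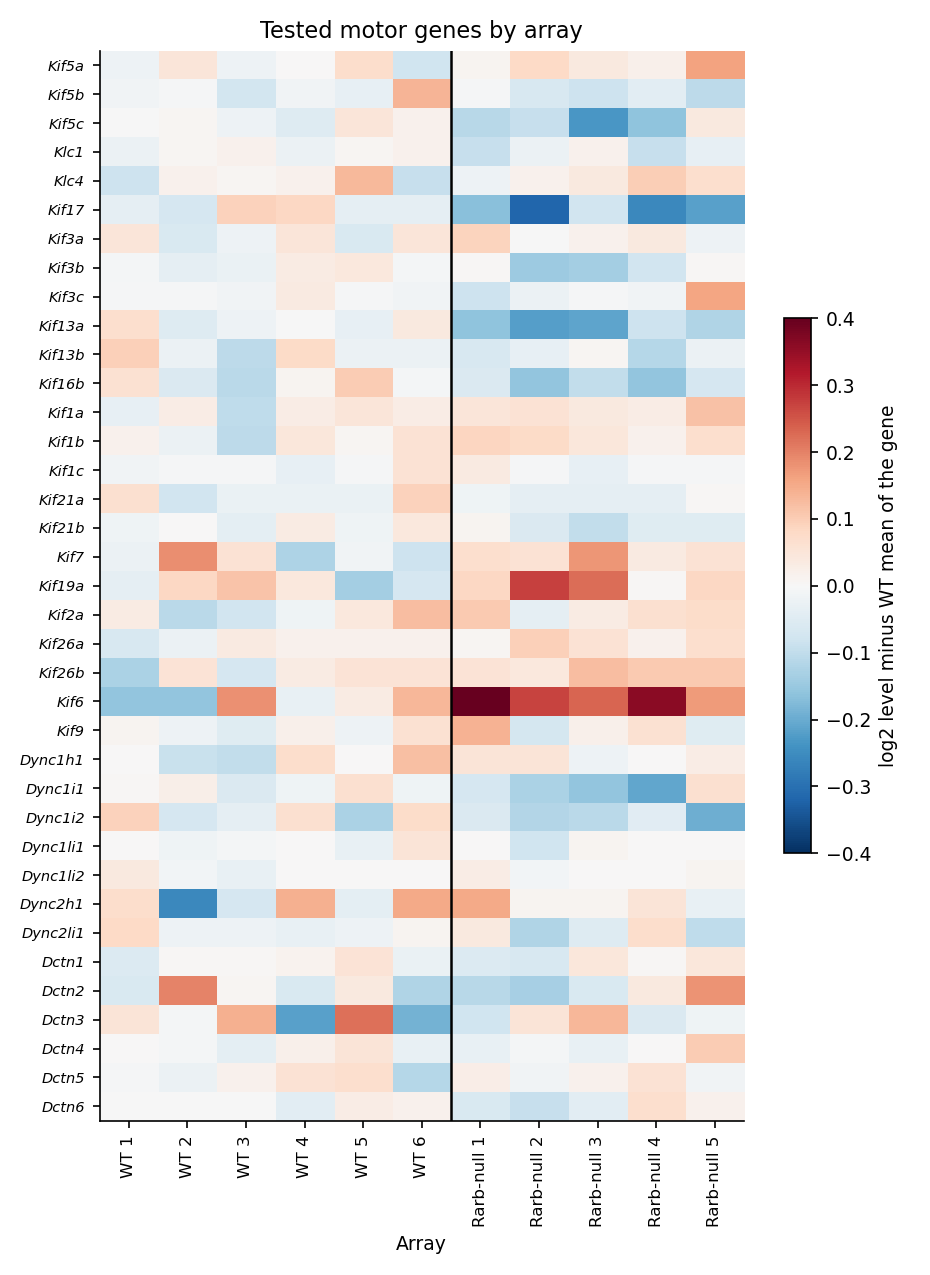
Log2 level of each of the 37 tested motor genes (rows, in order of role) in each of the 11 arrays (columns), as the distance from the gene's WT mean; red is higher, blue lower, and the black line divides the 6 WT from the 5 Rarb-null arrays. Kif17 and Kif13a are blue in the 5 null arrays and Kif6 is red, while Kif5c and Dync1i1 are blue in null replicates 1 to 4.

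Spread and extreme arrays within a genotype were examined for the tested motor genes only, without all genes beside them. The SD of a tested motor gene ran from 0.02 (Klc1) to 0.18 (Dctn3) over the WT arrays, with a median of 0.06, and from 0.01 (Dync1li2) to 0.13 (Dctn2) over the null arrays, with a median of 0.05. Among WT arrays, replicate 5 was the highest for 13 motor genes and replicate 6 for 12, and replicate 3 the lowest for 11. Among null arrays, replicate 1 was the highest for 11 and replicate 2 the lowest for 13.

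Of 77 tested genes in lists of motor adaptors and regulators, dynein light chains with the actin-related part of dynactin, microtubule-associated proteins and tubulins, limma called 6 that fell and 0 that rose, and at an unadjusted p under 0.05 there were 15 lower and 4 higher. These are 7.79% called and 24.7% at the unadjusted level, beside 19.6% and 35.3% of all genes tested. The split depended on scale. With each array centred on its median 10 rose and 2 fell, with repeated quantile normalisation 6 rose and 3 fell, and with cyclic loess 4 rose and 3 fell. The median difference was -0.010, beside -0.017 over all genes tested.

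Among 34 tested adaptors and regulators (median difference -0.025) 3 fell. This list also holds the kinesins Kifc2 (0.09) and Kifc3 (0.07), which the choice by symbol left out of the motor genes. Neither was called. Rhot1, the Miro protein that ties mitochondria to kinesin and dynein, read 9.84 to 9.93 in WT and 9.67 to 9.83 in null arrays, without overlap (-0.14, SE 0.035, limma adjusted p = 0.014). This call held whichever array was left out but not with the cortical covariate (-0.11, adjusted p = 0.156) or without the 3 arrays (-0.12, adjusted p = 0.108). Jakmip1, which links kinesin to RNA granules and GABA-B receptors, gave -0.16 (adjusted p = 0.0286), a call that failed on leaving out WT 1, 3 or 4, or null 2 or 5 (adjusted p 0.0501 to 0.0659). With the cortical covariate the Jakmip1 difference was -0.08 (adjusted p = 0.392) and without the 3 arrays -0.09 (0.184), and centring, repeated quantile normalisation and cyclic loess left -0.12 to -0.13 (0.0752 to 0.108). Fez1, a kinesin-1 adaptor of axonal vesicles, gave -0.10 (adjusted p = 0.0307), which failed on leaving out WT 3, 4 or 5, or null 1, 2 or 3 (0.0509 to 0.0807). The Fez1 call was also absent with arrays centred (-0.06, adjusted p = 0.168), the cortical covariate (-0.07, 0.27), the oligodendrocyte covariate (-0.12, 0.0661), the 3 arrays left out (-0.09, 0.151), repeated quantile normalisation, cyclic loess or no filter (0.0517 to 0.0613).

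On the track itself, Map4, a microtubule-associated protein, fell as 1 of 25 (-0.15, SE 0.037, limma adjusted p = 0.0114). It read 10.39 to 10.56 in WT and 10.27 to 10.35 in null arrays, and the call held whichever array was left out, although with all its probe sets averaged the difference was -0.06 (adjusted p = 0.217), and with the oligodendrocyte covariate it was -0.16 with an adjusted p of 0.0555. Of 10 tubulin genes 2 fell. Tubg1, a gene of gamma-tubulin, which seeds microtubules, gave -0.18 (adjusted p = 0.028). The Tubg1 call failed on leaving out WT 1 or 5, or null 1, 2 or 3 (0.0521 to 0.0695), with arrays centred (-0.14, 0.0638) and with the oligodendrocyte covariate (-0.19, 0.115). Tubg2, the other gamma-tubulin gene listed, went the other way and was not called (0.14, 95% interval 0.02 to 0.26, adjusted p = 0.0836). Tubb3, the neuronal beta-tubulin, gave -0.12 (adjusted p = 0.0342), lost when any array but WT replicate 6 and Rarb-null replicate 5 was left out (0.05 to 0.079). The Tubb3 difference was -0.08 with arrays centred (adjusted p = 0.159) or cyclic loess (0.122) and -0.09 with repeated quantile normalisation (0.0975), and the call was also absent with no filter (0.053), without the 3 arrays (0.0916) and with the cortical (-0.14, 0.0764) or oligodendrocyte covariate (-0.10, 0.18). Of 8 tested dynein light chain and actin-related genes limma called 0, with 2 at an unadjusted p under 0.05.

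**Figure D5:**
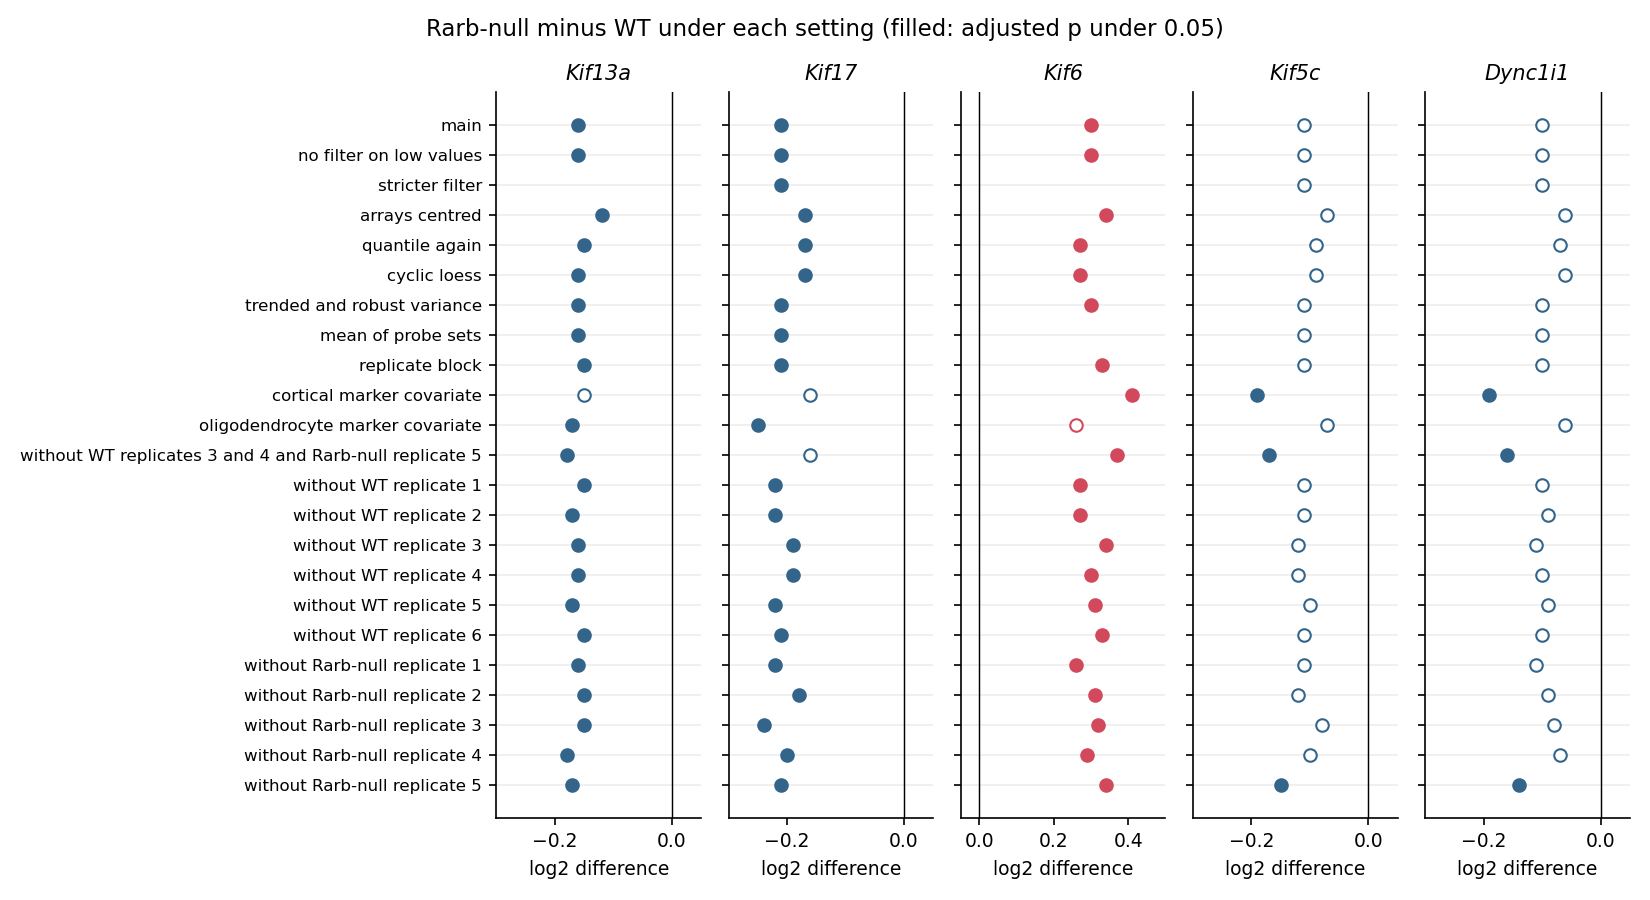
Difference, Rarb-null minus WT in log2 (x axis), of Kif13a, Kif17, Kif6, Kif5c and Dync1i1 under each of the settings tried (y axis); filled points have a limma adjusted p under 0.05 and open points do not, and a missing point means that the gene was not tested. The sign of each of the 5 genes is the same in every setting, and the calls of Kif5c and Dync1i1 appear in the settings that remove or adjust for Rarb-null replicate 5 or the cortical marker level.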

How the data were processed

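Expression was measured on 11 Affymetrix Mouse Gene 1.0 ST arrays, 1 per mouse, from bilateral 0.5 mm punches of 3 cryosections of 300 µm and 100 ng of RNA. The deposited log2 values are RMA output, per the labels; the log base was inferred from their range. The sources used here do not say whether all arrays were normalised together. RMA compresses folds of dim probe sets.

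Gene names came from a platform annotation, with 21698 probe sets matched through Entrez identifiers to RefSeq symbols. Of 35556 probe sets 21789 had 1 symbol, 1621 several and 12146 none. Genotypes were compared with limma 3.58.1 in R 4.3.3 without covariates. The number of arrays limits precision.

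Motor genes and lists were chosen with earlier results of these data known. The text names called motor genes, the 6 largest differences outside the threshold, the brightest gene of each role group and up to 4 called genes of each partner list; other motor genes are accounted for by role, and Kif18b and TGACGTCA were singled out after their values were seen. Alternatives covered filters, normalisation, probe sets, covariates, a replicate block and left-out arrays. Figures used matplotlib 3.10.9.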

Additional observations from a re-analysis of the deposited data

Results flagged for a closer look

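Among 88 groups of arrays examined (44 genes in each genotype), 8 had 1 array farther from the rest than Dixon's 95% limit allows. For independent groups chance gives about 1 in 20. Genes read on the same arrays are not independent, and no share over all genes is given here. WT replicate 6 was the highest WT array for Kif5b (10.55, others 10.34 to 10.41), Kif1c (7.66, others 7.57 to 7.60) and Dync1li1 (10.70, others 10.62 to 10.65). WT replicate 4 was the highest for Kif3c (9.98, others 9.93 to 9.94) and WT replicate 1 for Dync2li1 (8.35, others 8.24 to 8.28). Among null arrays, replicate 3 was the highest for Kif7 (7.50, others 7.36 to 7.39), replicate 2 the lowest for Dync1li1 (10.57, others 10.65 to 10.66) and replicate 5 the highest for Dctn4 (10.69, others 10.56 to 10.59). None of these 7 genes was called.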

How the results depend on the processing

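The number of motor genes that rose, 1, became 2 with no filter or with arrays centred and 0 with the stricter filter or the oligodendrocyte covariate; the number that fell, 2, became 1 with the stricter filter, 3 without 3 arrays (WT 3, WT 4 and null 5), and 2 to 4 when each array was left out (4 without Rarb-null replicate 5; 1 rise throughout); with the cortical covariate it was 2, but these were Kif5c and Dync1i1 and not Kif13a and Kif17. With probe sets averaged 1 motor gene rose, but this was Kif26b, and Kif6 was not tested. Partner genes that rose, 0, became 10 with arrays centred, 6 with repeated quantile normalisation and 4 with cyclic loess. They numbered 1 with a trended variance or the replicate block, and 0 to 1 with each array left out. Those that fell, 6, became 2 with arrays centred, the oligodendrocyte covariate or without the 3 arrays, 3 with repeated quantile normalisation, cyclic loess or the cortical covariate, and 2 to 8 with each array left out. Over all genes, 905 rises became 510 with the stricter filter, 1677 with arrays centred, 400 and 328 with the cortical and oligodendrocyte covariates, 473 without the 3 arrays and 584 to 1010 with each array left out; 1436 falls became 939, 819, 761, 874 and 963 to 1566 (1209 with the stricter filter). Of the 37 tested motor genes 15 changed sign under at least 1 setting; the largest main difference among them was 0.06, that of Kif5a. Among those given as the brightest of their role group, signs turned for Kif3c (-0.04 with the cortical covariate, -0.03 without the 3 arrays, and -0.03 to 0.03 with each array left out), Kif21a (0.01 with arrays centred, repeated quantile normalisation or the oligodendrocyte covariate, 0.0046 with cyclic loess), Dync2li1 (0.01) and Dctn6 (0.02, both with arrays centred). Causes were not tested, except that the stricter filter tests 24 motor genes, without Kif13a and Kif6. Deviations of arrays with the same replicate number correlated at 0.0557 to 0.425, and 5 of 10 arrays correlated best with their own number. Arrays of the same number may thus share something, and whether the numbers mark pairs was not settled. The main fit left the numbers out because the design text names no covariate. With the replicate block 1 motor gene rose and 2 fell, and 1079 of all genes rose and 1793 fell.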

Other observations

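TGACGTCA occurred in 5 of 49 motor gene windows (10.2%, beside 1.79% of all windows), those of Kif17, Kif5c, Klc1, Dctn3 and Kif18a. Of these genes Kif17 was called, Kif5c, Klc1 and Dctn3 were not, and Kif18a lay below the filter. The motif was picked after the Kif17 stretch had been read.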
